A study of Mus musculus with 6 samples.

Results

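Nodal and its antagonists Lefty1 and Lefty2 were examined as 2 genomic windows in which binding of the transcription factors SMAD1 and SMAD5 had been mapped by ChIP-seq in mouse pluripotent cells. In mm9 coordinates, the Nodal window was chromosome 10 from 60780000 to 60980000. The window of Lefty2 and Lefty1 together was chromosome 1 from 182750000 to 182950000. Both windows were set with earlier results of these data known. The members were then taken by position, as every deposited peak that overlapped either window. There were 14 such peaks among 24441 in the 4 peak lists of the series. Of these, 8 lay in the Nodal window and 6 in the Lefty window.

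All cells came from the mouse embryonic stem cell (ESC) line E14, and no genetic change is named. One ESC library was from cells in LIF with 15% serum, and another from cells in LIF with 10 ng/ml BMP-4 in a basal medium. The labels name a pair of basal media for the latter and do not say which one was used. The remaining libraries were from epiblast stem cells made from ESCs (ESD-EpiSCs), kept in 20 ng/ml Activin A and 12 ng/ml FGF2 and exposed to BMP-4 at 10 ng/ml, one for 1.5 h and the other for 24 h. Chromatin was precipitated with an antibody against Smad1, and each precipitation pooled several culture plates. Each condition was 1 library without a replicate, so the differences below could not be set against replicate error and carry no p-values. The files hold peaks and not reads, so sequencing depth is unknown, and the identity of the cells cannot be checked against marker genes. ESC and ESD-EpiSC libraries differ in state, medium and BMP-4 exposure together, and these cannot be told apart.

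Nodal is a secreted ligand of the TGF-β family. It signals through activin receptors to SMAD2 and SMAD3, whereas BMP-4 signals through BMP receptors to SMAD1 and SMAD5. Nodal and the Lefty genes are well-known targets of Nodal's own signal, and the secreted Lefty proteins block Nodal, which closes a feedback loop. Activin A, present in the ESD-EpiSC medium, uses the same SMAD2 and SMAD3 branch. The antibody used here reads the BMP branch, so the peaks below are BMP-SMAD calls in windows chosen for genes of the Nodal branch.

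No gene model of the mm9 build was used here, so a peak is placed in a window and not at a promoter, exon or intron. In the RefSeq gene order of GRCm38.p6, used for names only, the coding genes next to Nodal (gene ID 18119) are Pald1 and Eif4ebp2. Lefty2 has gene ID 320202 and Lefty1 gene ID 13590. Both windows are long enough to hold other genes, so a peak in them is not assigned to Nodal, Lefty1 or Lefty2.

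The reference promoter of Nodal is shown because it is the promoter of these genes that the RefSeq table holds. It comprises the 250 bases before the gene's start on the + strand, chr10:61417722-61417971 in GRCm38.p6, and these coordinates cannot be set against the mm9 peaks. Capitals would mark a motif match.

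Nodal promoter: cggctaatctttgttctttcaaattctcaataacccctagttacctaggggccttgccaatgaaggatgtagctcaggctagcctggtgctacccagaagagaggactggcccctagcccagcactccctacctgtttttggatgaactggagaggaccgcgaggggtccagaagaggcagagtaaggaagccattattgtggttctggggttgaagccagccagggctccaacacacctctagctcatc

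Both strands were searched for GTCT (the SMAD box), for GGCGCC (a GC-rich SMAD site) and for AATCCAC (the core of a site for FOXH1, the DNA-binding partner of SMAD2 and SMAD3). None of these letters occurred in the 250 bases. Among all 32851 promoters of that length in the table, 82.9% held GTCT, 9.59% held GGCGCC and 2.10% held AATCCAC. The search says only that these letters are not in this stretch. No sequence under the peaks was read.

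SMAD1/5 was called at both loci in ESCs of either medium and at neither locus in ESD-EpiSCs. In LIF+serum the Nodal window held 3 peaks and the Lefty window 3. In LIF+BMP-4 the Nodal window held 5 and the Lefty window 3. The 1.5 h and the 24 h list each had 0 peaks in either window. The map of both windows shows these calls by position.

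**Figure D1:**
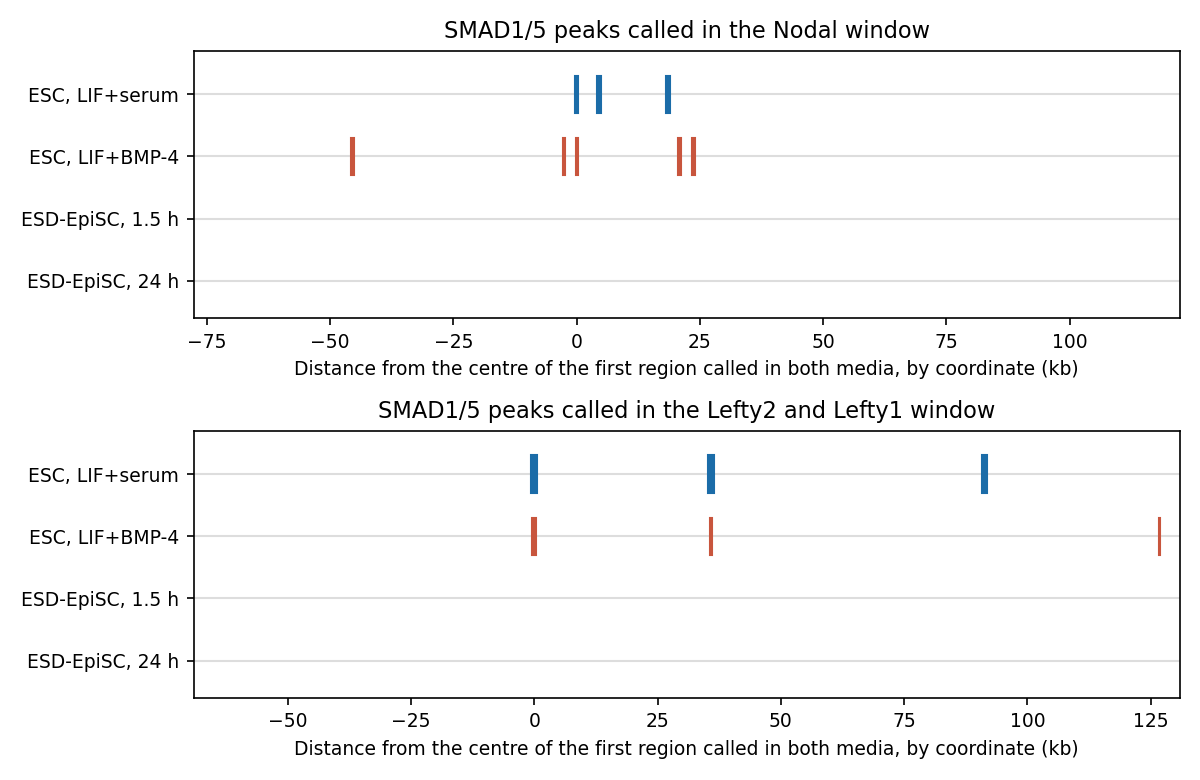
Peaks called in the Nodal window (top) and in the window of Lefty2 and Lefty1 (bottom), 1 row per peak list; the x axis gives the distance in kb from the centre of the first region, by coordinate, that was called in both ESC media, and bars are drawn to scale. Both ESD-EpiSC rows are empty; at Nodal 6 of 7 regions lie within 26.7 kb, while the 4 Lefty regions are spread over 127.6 kb.

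The number of peaks was above the typical count for stretches of this length. The genome was divided into 12856 tiles of 200 kb, and the median tile held 0 peaks in either ESC list. At least 3 LIF+serum peaks, as at both loci, were held by 9.06% of tiles (exact binomial 95% interval 8.57 to 9.57). At least 5 LIF+BMP-4 peaks, as at Nodal, were held by 6.25% (5.83 to 6.68), and at least 3, as at Lefty, by 15.8% (15.1 to 16.4). Over tiles with an ESC peak alone, the shares were 18.0% for LIF+serum at both loci. For LIF+BMP-4 they were 12.4% (Nodal) and 31.4% (Lefty). The intervals cover counting error over tiles only, and tiles are not replicates. The windows were chosen with earlier results of these data known, so these shares describe density and are not a test.

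**Figure D2:**
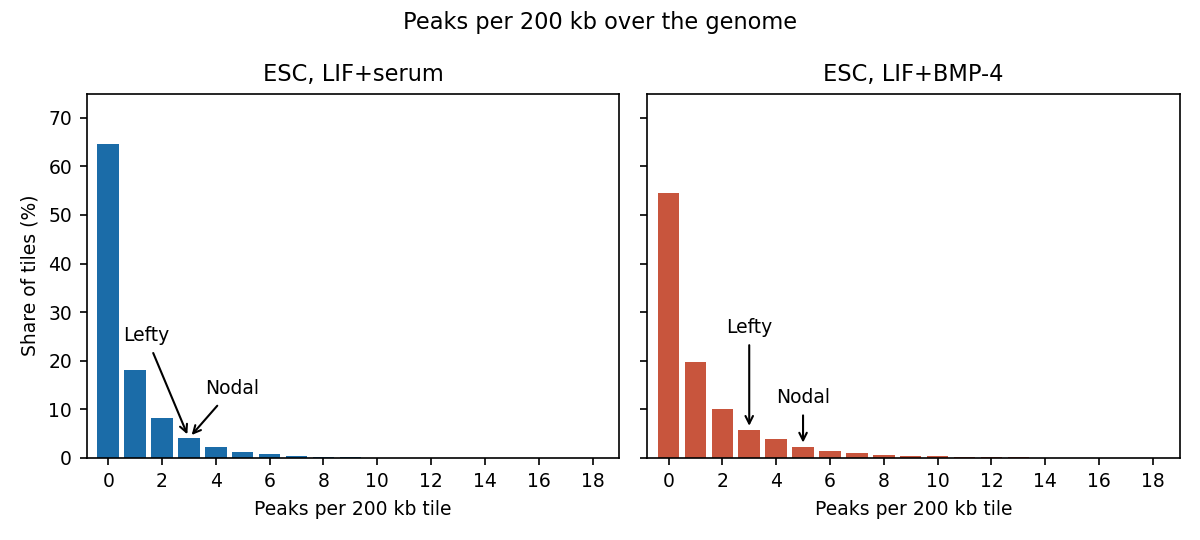
Share of 200 kb tiles (y axis, percent) by the number of peaks in the tile (x axis) for the LIF+serum list (left) and the LIF+BMP-4 list (right), with arrows at the counts of the Nodal and Lefty windows. In LIF+serum both windows hold 3 peaks and 64.6% of tiles hold 0; in LIF+BMP-4 the windows hold 5 and 3 peaks and 54.6% of tiles hold 0.

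At Nodal the strongest call was a LIF+serum peak on chromosome 10 at 60857361 to 60857971. The deposited files give each peak a score, the authors' own value. It was used to rank peaks inside a list and, where stated, for a limit of 100. The percentile below is the share of a list's peaks with the same or a lower score. This peak had a score of 101.89, ranked 2084 of 9387 and stood at percentile 77.8. The second LIF+serum peak, at 60861777 to 60862595, scored 81.18 (rank 3498, percentile 62.7). The third, at 60875863 to 60876515, scored 60.02 (rank 6513, percentile 30.6). So 2 of the 3 LIF+serum peaks at Nodal stood above percentile 50.

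All 5 LIF+BMP-4 peaks at Nodal stood below percentile 50 of their list. The highest, at 60881116 to 60881663, scored 72.07 and ranked 8136 of 14696 (percentile 44.6). The peak at 60857462 to 60857923 scored 62.01 (rank 10305, percentile 29.9), and the one at 60878308 to 60878897 scored 55.99 (rank 12147, percentile 17.4). The last pair lay close to the lowest score in the list, which was 50.00. These were the peak at 60811973 to 60812423, with a score of 53.69 (rank 13037, percentile 11.3), and the peak at 60854973 to 60855261, with a score of 51.16 (rank 14169, percentile 3.6). With the LIF+BMP-4 list reduced to its 9387 highest-scoring peaks, the length of the LIF+serum list, 1 of these 5 peaks remained, the one at 60881116. The Nodal counts were then 3 (LIF+serum) and 1 (LIF+BMP-4). The 4 peaks lost included the one at 60857462, which overlaps the strongest LIF+serum peak.

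The Lefty window held the highest-ranked sites of the loci. A peak on chromosome 1 at 182818540 to 182819346 in LIF+BMP-4 scored 230.47 and ranked 628 of 14696 (percentile 95.7). The same place was called in LIF+serum at 182818471 to 182819711, with a score of 147.81 and rank 873 of 9387 (percentile 90.7). The other place called in both media was 182854279 to 182855489 in LIF+serum (score 127.05, rank 1259, percentile 86.6) and 182854659 to 182855177 in LIF+BMP-4 (score 80.94, rank 6652, percentile 54.7). Both sites stood above percentile 50 in either medium with the full lists. In a LIF+BMP-4 list cut to its 9387 highest-scoring peaks, rank 6652 of the second site lies below the middle.

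Each medium had 1 further peak in the Lefty window, at different places. In LIF+serum it lay at 182909896 to 182910887, with a score of 76.96 (rank 3898, percentile 58.5). In LIF+BMP-4 it lay at 182945736 to 182946025, with a score of 68.59 (rank 8823, percentile 40.0). These were the lowest-ranked of the window in their lists. All 3 LIF+BMP-4 peaks were kept when the list was shortened to 9387 peaks. The one at 182945736, with rank 8823, was then near the end of the list.

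**Figure D3:**
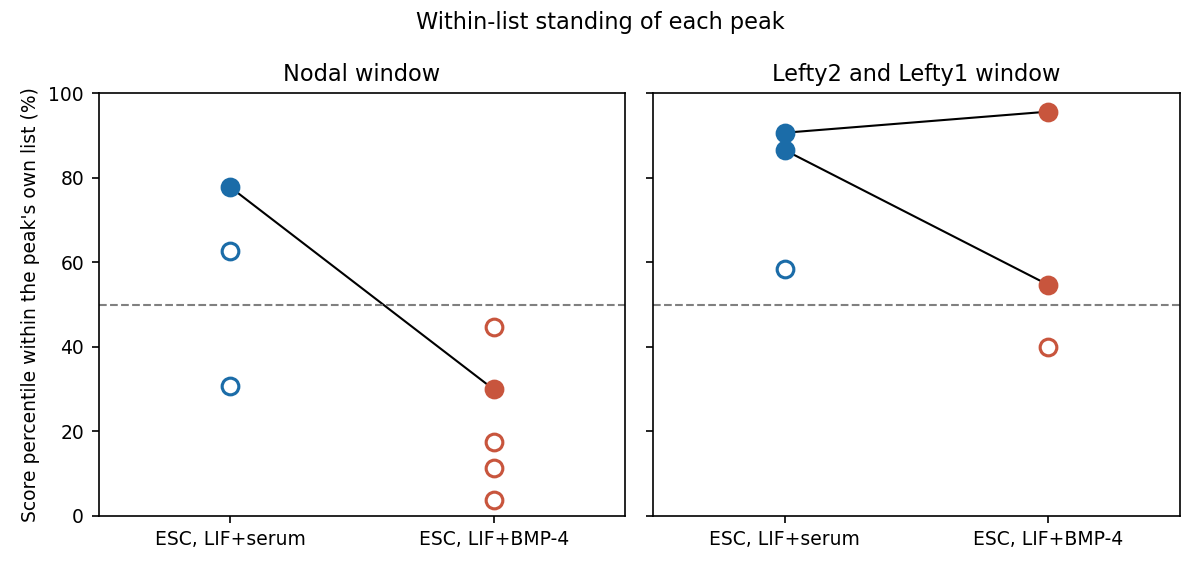
Score percentile within its own list (y axis, percent) of every peak in the Nodal window (left) and the Lefty window (right), for LIF+serum and LIF+BMP-4 ESCs. Filled points overlap a peak of the other medium and lines join them, open points do not, and the dashed line marks percentile 50; the 5 Nodal peaks in LIF+BMP-4 all lie under that line, and both joined Lefty sites lie over it in either medium.

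The median percentile in LIF+serum was 62.7 for Nodal and 86.6 for Lefty. The LIF+BMP-4 medians were 17.4 and 54.7. In both lists the Lefty median was above the Nodal median, although the ranges overlapped. The LIF+serum peaks ran from 30.6 to 77.8 at Nodal and from 58.5 to 90.7 at Lefty. The LIF+BMP-4 peaks ran from 3.6 to 44.6 and from 40.0 to 95.7. The order of the media at Nodal was not stable: in a window of 400 kb with the same centre the medians were 30.6 (LIF+serum) and 44.6 (LIF+BMP-4). It turned as well when peaks were ranked by width, with Nodal medians of 23.3 (LIF+serum) and 40.2 (LIF+BMP-4). Scores of at least 100 were reached by 1 of 3 Nodal peaks and 2 of 3 Lefty peaks of the LIF+serum list, where 23.1% of all peaks reached that score. The LIF+BMP-4 counts were 0 of 5 and 1 of 3, where 29.7% of all peaks did. With so few peaks these shares cannot be placed closely.

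Width followed a similar order at Lefty but not at Nodal. In LIF+serum the Lefty peaks were 992 to 1241 bp wide, against a list median of 811 bp, and had a median width percentile of 90.3. The Nodal peaks were 611 to 819 bp wide in LIF+serum, with a median width percentile of 23.3. In LIF+BMP-4 the Nodal peaks were 289 to 590 bp and the Lefty peaks 290 to 807 bp wide, around a list median of 500 bp, with median width percentiles of 40.2 and 55.5. Called sequence amounted to 2083 bp at Nodal and 3444 bp at Lefty in LIF+serum. In LIF+BMP-4 it was 2340 bp and 1616 bp.

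Merging overlapping peaks of both media gave 7 regions at Nodal and 4 at Lefty. At Nodal, 1 of 7 regions was called in both media (14.3%, exact binomial 95% interval 0.361 to 57.9), 2 had a LIF+serum peak alone and 4 a LIF+BMP-4 peak alone. At Lefty, 2 of 4 were called in both (50.0%, 6.76 to 93.2), and each medium had 1 of its own. Over the genome 29.9% of 18387 regions were called in both. The intervals rest on 7 and 4 neighbouring regions, which are not replicates. They are so wide that they cannot place either locus against that share. With ESC lists of equal length, 0 of 4 Nodal regions and 2 of 4 Lefty regions were called in both. Overlap with the other medium was found for 1 of 3 LIF+serum peaks at Nodal and 2 of 3 at Lefty, beside 58.8% of all LIF+serum peaks. It was found for 1 of 5 LIF+BMP-4 peaks at Nodal and 2 of 3 at Lefty, beside 38.7% of all LIF+BMP-4 peaks.

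Of the 3 LIF+serum peaks without a LIF+BMP-4 counterpart, 2 stood above percentile 50 and the Nodal peak at 60875863 below it. A counterpart was found for 79.3% of the 3498 LIF+serum peaks that scored at least as high as the Nodal peak at 60861777. It was found for 77.5% of the 3898 that scored at least as high as the Lefty peak at 182909896. For the Nodal peak at 60875863 the share was 67.2% of 6516. Each share includes all stronger peaks, so it is not the share among peaks of like score.

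In the 3 regions called in both media, the LIF+BMP-4 peak lay wholly within the LIF+serum peak. The midpoints were 26.5 bp apart at Nodal, and 148.0 bp and 34.0 bp apart at the first and second Lefty region by coordinate. The median over all 5330 one-to-one overlaps between the media was 70.5 bp. The LIF+serum peak was 1.32 times as wide as its partner at Nodal and 1.54 and 2.33 times as wide at Lefty, where the median of all pairs was 1.48.

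Side by side, the Nodal site called in both media stood at percentile 77.8 of the LIF+serum list and 29.9 of the LIF+BMP-4 list. The first Lefty site stood at 90.7 and 95.7, and the second at 86.6 and 54.7. The lists differ in length, so these standings do not measure a change between the media. With lists of equal length the LIF+BMP-4 peak of the Nodal site is absent, and no such pair of values exists for it.

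The Nodal calls were crowded and the Lefty calls were spread out. This measure was chosen after the positions were seen. From 60854973 to 60881663, a stretch of 26.7 kb, there were 6 of the 7 Nodal regions. Neighbours there were 2.1, 3.8, 13.3, 1.8 and 2.2 kb apart. In order of coordinate they were called in LIF+BMP-4, in both media, in LIF+serum for the next pair and in LIF+BMP-4 for the last pair. The LIF+serum peak at 60875863 and the LIF+BMP-4 peak at 60878308, for example, were separated by 1792 bp. Of all 7 Nodal regions, 6 had a neighbour within 5 kb, and of the 4 Lefty regions 0 did, beside 31.0% of regions over the genome. That share covers stretches of any density and was not matched to stretches holding as many regions as these windows. In the Lefty window the places called in both media were 34.6 kb apart.

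The window limits decided some of these counts. Just outside the lower end of the Nodal window, by 0.8 kb, lay a LIF+BMP-4 peak at 60778675 to 60779150 with a score of 77.76 (rank 7122), above all 5 inside. The nearest LIF+serum peak below that end was 44.1 kb away, with a score of 57.63, and the outermost LIF+serum peak inside lay 77.4 kb from the end. Above the Lefty window, by 9.6 kb, both media had a peak: 182959584 to 182960170 in LIF+serum (score 91.07, rank 2700) and 182959611 to 182960090 in LIF+BMP-4 (score 73.47, rank 7815). The LIF+BMP-4 peak just inside that end lay 4.0 kb from it and scored 68.59.

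In ESD-EpiSCs, neither BMP-4 time gave a call at Nodal or Lefty. The 1.5 h list held 225 peaks in all and the 24 h list 133. Their peaks were also narrower, with median widths of 123 bp (1.5 h) and 102 bp (24 h). The ESC medians were 811 bp (LIF+serum) and 500 bp (LIF+BMP-4). The nearest 1.5 h peak to the Nodal window was 0.50 Mb below it, at 60277538 to 60277764, with a score of 133.81 (rank 30 of 225), and no ESC list had a peak there. The nearest 24 h peak on that chromosome was 27.32 Mb away, at 33457254 to 33457309 (rank 129 of 133). For the Lefty window the nearest 1.5 h peak was 2.54 Mb away, at 180213544 to 180213690 (rank 75), where LIF+BMP-4 ESCs also had a peak. The nearest 24 h peak was 8.11 Mb away, at 174636148 to 174636246 (rank 92). Over all LIF+serum peaks the median distance to an ESD-EpiSC peak of either time was 2.78 Mb. The window distances above run from a window's end to the nearest peak of a single time, so they are not the same measure.

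These absences were the common case in lists so short. An ESD-EpiSC peak was met by 0 of the 6 LIF+serum peaks of the windows, beside 0.735% of all LIF+serum peaks, and by 0 of the 8 LIF+BMP-4 peaks, beside 0.517% of all. Among LIF+serum peaks scoring at least as high as the best Lefty peak, 30 of 874 (3.43%, 2.33 to 4.86) met one. Among LIF+BMP-4 peaks scoring at least as high as the best Lefty peak, 22 of 628 (3.50%, 2.21 to 5.26) did. Of all 200 kb tiles, 1.47% held a 1.5 h peak, 0.910% a 24 h peak and 2.20% a peak of either time. Of those with an ESC peak, 3.37% did. An absent call at Nodal or Lefty is therefore shared with nearly all ESC sites, and at unknown depth it does not show that SMAD1/5 was not bound.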

How the data were processed

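SMAD1/5 ChIP-seq peak lists of 4 libraries were analysed; the 2 input libraries were not analysed here. Per the submitters' processing notes, Bowtie 1.1.0, Picard and MACS 1.4.2 were used on mm9, without their order. No source used here gives the read filters, controls or read numbers. The deposited lists have 5 columns: chromosome, start, end, name and a score by the authors. The scale of the score is not stated; MACS usually writes -10 × log10 of a p-value there. Positions are printed 1-based. Overlap meant at least 1 bp, and intervals are exact (Clopper-Pearson) 95% binomial intervals that cover counting error only. Tiles of 200 kb counted peak midpoints between the first and last peak of a chromosome. Python 3.11.15, numpy 2.4.6, pandas 2.3.3, scipy 1.17.1 and matplotlib 3.10.9 were used, and the overlap and merging steps were tested on simulated data. Members, windows and motifs were chosen with earlier results of these data known. Every peak of the windows is named, as are the nearest ESD-EpiSC peaks. A planned list of further Nodal pathway genes was not run, because no mm9 annotation was used here. One item is not reported here. Promoters of Lefty1 and Lefty2 were not in the table used.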

Additional observations from a re-analysis of the deposited data

How the results depend on the processing

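No paired analysis was possible because every group is a single library. All alternatives were set with earlier results of these data known. Of 67 alternative values, 41 stayed within their limit (1.5 times for counts, 10 points for percentiles, the 95% interval for tile shares) and 26 moved past it. Some of the 41 could not have moved. A score limit or a 100 kb window cannot change an ESD-EpiSC count of 0. Lists of equal length leave the LIF+serum list and both ESD-EpiSC lists as they were. The tally is therefore not a measure of stability. A limit of 100 on the score left Nodal with 1 LIF+serum and 0 LIF+BMP-4 peaks and Lefty with 1 LIF+BMP-4 peak; 0 regions at Nodal and 1 at Lefty were then called in both media. The tile shares became 13.0% (Nodal, LIF+serum), 2.75% (Lefty, LIF+serum) and 22.2% (Lefty, LIF+BMP-4); with 0 peaks left, Nodal in LIF+BMP-4 gave none. A 400 kb window held 5 LIF+serum and 9 LIF+BMP-4 peaks at Nodal and 5 and 6 at Lefty. Its median percentiles were 30.6 and 44.6 at Nodal and 71.2 at Lefty in LIF+serum, so the order of the media at Nodal turned. A 100 kb window gave 75.2 for Lefty in LIF+BMP-4. Ranked by width, the Nodal medians were 23.3 (LIF+serum) and 40.2 (LIF+BMP-4), which turned their order too. ESC lists of equal length left 1 LIF+BMP-4 peak and 0 shared regions at Nodal. Extension by 1 kb gave 2 shared regions there. Over tiles with an ESC peak alone, the shares were 18.0% for LIF+serum at both loci, and 12.4% (Nodal) and 31.4% (Lefty) for LIF+BMP-4. A 2 Mb window held 1 ESD-EpiSC peak, at Nodal at 1.5 h; every other setting left 0 at both loci and times. The score limit, the shorter list and the other windows act by changing which peaks are counted; for the ranking by width the cause was not tested.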

Other observations

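Above the Nodal calls lay a long stretch without any ESC peak, which was noticed after the positions were seen. From 60881663, the end of the last Nodal region, to 61251272 on chromosome 10, neither ESC list had a call over 369.6 kb. Of 18366 gaps between neighbouring ESC regions, 8.96% were as long. The gap below the first Nodal region was 32.8 kb, and 51.6% of gaps were as long. At Lefty the gaps were 119.1 kb below the window's first region and 13.6 kb above its last, and 25.5% and 68.1% of gaps were as long.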
